A study of Drosophila melanogaster with 13 samples.

Results

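The replication-dependent histone genes of *Drosophila melanogaster* were followed through clones of the larval optic lobe, the visual centre of the brain. They were chosen by symbol alone, as every gene of the count table whose name begins with His1:, His2A:, His2B:, His3: or His4:. The rule found 111 gene copies among 17633 genes, of which 23 code for His1, 20 for His2A, 23 for His2B, 23 for His3 and 22 for His4. RNA was measured at the wandering L3 stage in 9 libraries of flow-sorted cells, with 3 libraries each of lola[E76], nerfin-1[159] and WT clones. lola and nerfin-1 code for zinc finger transcription factors that hold newborn neurons in their differentiated state, and each mutant clone carried the named allele of 1 of them. Per the labels, the WT and lola[E76] columns bear the name of the recombination site 42D and the nerfin-1[159] columns that of 2A, so that the nerfin-1[159] clones were made with another chromosome than their WT controls. The sources used here do not say whether all clones carried the same second chromosome, on which the histone genes lie, and a difference of nerfin-1[159] from the other genotypes cannot be told apart from a difference between these stocks. Each library pooled cells sorted on several days (33000 to 105000 cells, 15 to 70 ng of RNA), and the labels do not tie a library to animals. The p-values below therefore set differences between genotypes against the spread of these pooled samples, not of animals, and that spread may be technical in part.

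A dividing cell needs new histones while it copies its DNA, and the replication-dependent genes supply them in S phase. His2A, His2B, His3 and His4 form the nucleosome core, and His1 is the linker histone that binds where DNA enters and leaves it. In *Drosophila* these genes lie in a tandem array of repeat units, transcribed within a nuclear compartment called the histone locus body. Their mRNAs normally end in a stem-loop and not in a poly(A) tail, which makes them unusual among mRNAs, since the stem-loop binding protein Slbp and a dedicated cleavage complex form that end. Polyadenylated forms are also known in *Drosophila*, where a second signal lies downstream of the stem-loop. The libraries here were made with QuantSeq, which primes on poly(A) and counts a tag near the 3′ end, so the counts below are of transcripts or fragments that could be primed in that way and are not a measure of all histone mRNA.

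The libraries held 3465601 to 5200223 counts, and 3 counts corresponded to 0.577 to 0.866 CPM (counts scaled to a common library size). Tags of nerfin-1 numbered 18.8, 6.60 and 2.06 CPM in nerfin-1[159] libraries, against 308.2, 255.5 and 279.2 CPM in WT libraries. The lola tags differed by 0.17 (log2) between lola[E76] and WT clones and do not check that genotype. Markers of neuroblasts, the dividing stem cells of the brain, summed to 436 to 475 CPM in lola[E76], 983 to 1100 CPM in nerfin-1[159] and 109 to 294 CPM in WT libraries (7 genes, none at 0 in all libraries of a genotype). The neuron markers summed to 6900 to 7483 CPM in lola[E76], 5088 to 5981 CPM in nerfin-1[159] and 7921 to 8984 CPM in WT libraries (6 genes). Most of this sum was elav and fne, and members differed. elav had 2049 to 2482 CPM in lola[E76], 2145 to 2439 CPM in nerfin-1[159] and 2257 to 2769 CPM in WT libraries. nSyb had 13.1 to 62.3 CPM in lola[E76] and 118 to 151 CPM in nerfin-1[159] libraries, against 388 to 445 CPM in WT libraries. WT replicate 1 stood apart within its genotype, with 1.33 CPM of the neuroblast factor dpn against 10.1 and 11.7 CPM in the other WT libraries.

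All 111 copies matched a gene on chromosome arm 2L in the RefSeq gene table (Release 6), and their order there gave 23 repeat units, each taken to start at a His1 gene. Of these, 19 held all 5 types and 4 lacked a type. Tags were counted at 51 copies and the other 60 were at 0 in all 9 libraries. Copies at 0 were found in every type, with tags at 14 of 23 His1 copies, 12 of 20 His2A copies, 14 of 23 His2B copies, 6 of 23 His3 copies and 5 of 22 His4 copies. In 6 of the 23 units (unit 4 and units 14 to 18) no copy had a tag. A count of 0 in the WT group allowed a level of up to 0.216 CPM over its 3 libraries, and this limit covers counting error only.

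Copies with tags mostly carried the same counts as other copies. Of the 111, 41 had exactly the counts of another copy in all 9 libraries, leaving out those at 0, and with a tolerance of 2 counts per library the 51 copies fell into 16 count profiles. The largest were 7 His1 copies of units 5 to 12 led by His1:CG33810, 7 His2A copies of units 2 to 11 led by His2A:CG31618, 6 His2B copies led by His2B:CG33904 and 5 His4 copies of units 7 to 11 led by His4:CG33899. Copies of a profile are not separate measurements, and a sum over them can count a tag several times. The type sums below add every copy, so their SE and p take such repeated counts as further tags. The copies together had 26987 counts, and 6404 with 1 copy per profile. The overlap reached beyond coding genes, since the pseudogenes His-Psi:CR33802 and His-Psi:CR33811 carried the counts of the 7 His2A copies in all but 1 library.

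**Figure D1:**
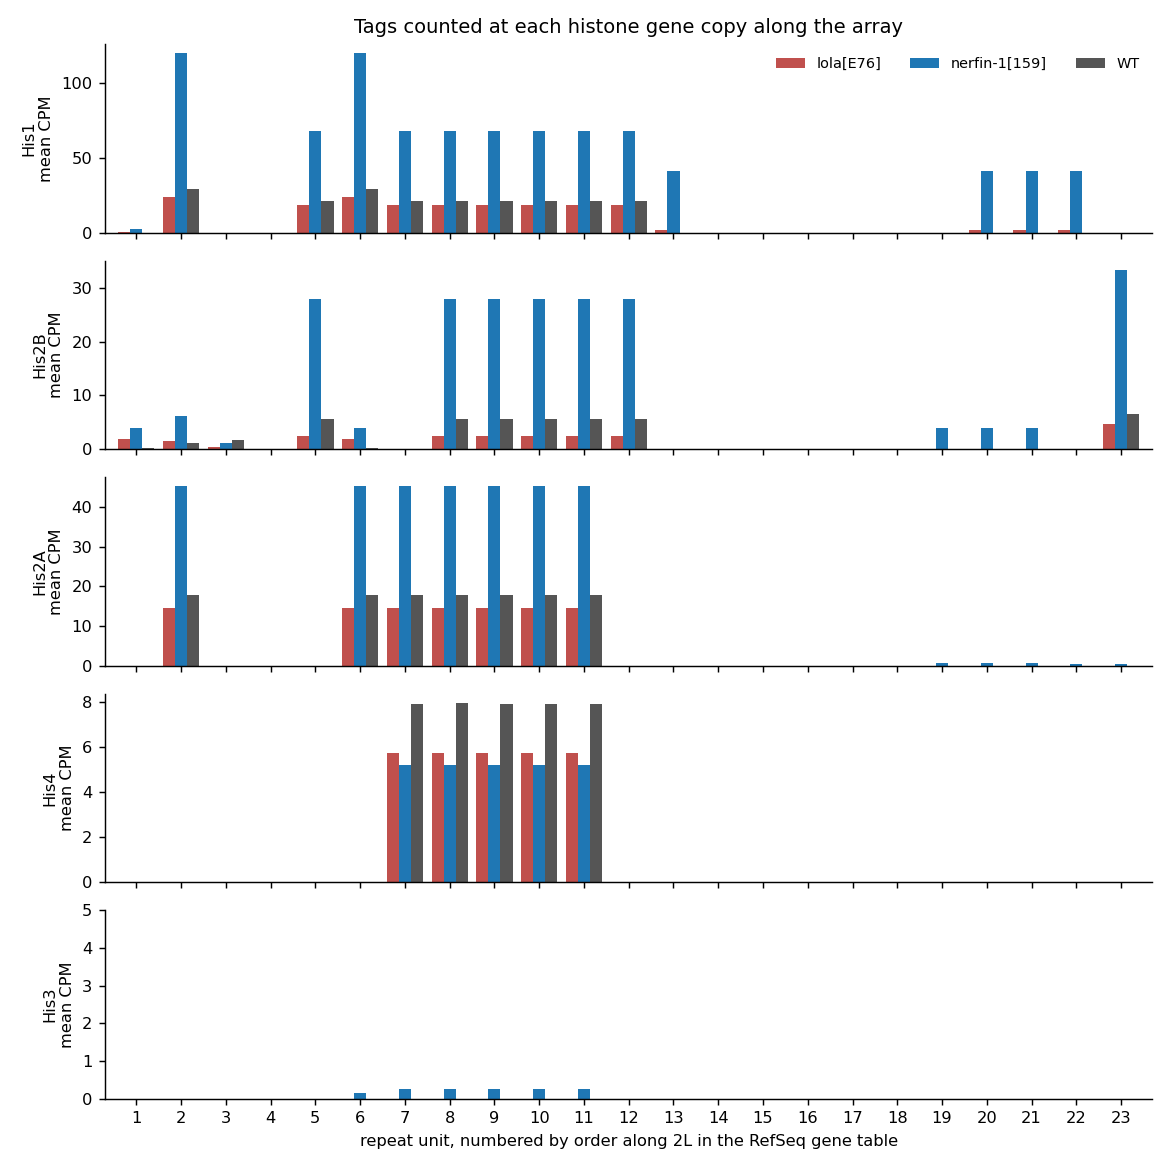
Mean CPM of 3 libraries at each histone gene copy, by repeat unit (1 to 23) along 2L, for lola[E76], nerfin-1[159] and WT clones. Units 7 to 11 have tags of His1, His2A and His4 in every genotype, units 14 to 18 have none, and the His1 copies of units 13 and 20 to 22 stand out for nerfin-1[159] clones.

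Tags of His1, His2A and His2B rose in nerfin-1[159] clones, while those of His4 did not pass the test. The summed His1 copies had 741, 1065 and 847 CPM in nerfin-1[159] libraries, against 236, 167 and 217 CPM in WT libraries. All 3 nerfin-1[159] values lay above all 3 WT values. The difference was 2.11 ± 0.22 (log2, SE). Its p was 3.004e-06 in the quasi-likelihood test of edgeR, adjusted over 7420 genes by Benjamini and Hochberg's method and called edgeR adjusted p from here on. In such bulk samples, more cells of a type and more RNA per cell cannot be told apart.

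His2B, which pairs with His2A in the nucleosome, had 248, 221 and 217 CPM in nerfin-1[159] libraries, against 26.6, 50.8 and 52.9 CPM in WT libraries. The groups were again wholly apart, with a difference of 2.39 ± 0.39 (log2, edgeR adjusted p = 0.0003668). His2A had 337, 374 and 247 CPM in nerfin-1[159] libraries, against 121, 97.7 and 156 CPM in WT libraries. Its difference of 1.36 ± 0.25 (log2, edgeR adjusted p = 0.001135) was the smallest of the 3 types that passed. With 1 copy per profile the differences were 2.21 ± 0.23 for His1, 2.31 ± 0.39 for His2B and 1.38 ± 0.33 for His2A (log2). The edgeR adjusted p was then 2.805e-06, 0.0004285 and 0.008554. Counts of all copies made up 0.146 ± 0.0186% of a nerfin-1[159] library and 0.0415 ± 0.00621% of a WT library (SD, n = 3 each), or 0.0360% and 0.00917% with 1 copy per profile.

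His4 did not follow. It had 27.4, 14.7 and 36.1 CPM in nerfin-1[159] libraries, against 36.0, 34.4 and 48.3 CPM in WT libraries. The values overlapped, with a difference of -0.59 ± 0.34 (log2, edgeR adjusted p = 0.3492). With 1 copy per profile it was -0.59 ± 0.59 (log2, edgeR adjusted p = 0.6544). His3, the remaining core histone, had 0, 2 and 15 counts in nerfin-1[159] libraries and 0 in each lola[E76] and each WT library. At 17 counts in all, which include counts repeated over copies, it was below the filter on low counts and was not tested.

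Of the 4 types tested, 3 were called higher in nerfin-1[159] clones, where 5.32% of all genes tested were called higher and the libraries were wholly apart for 29.8%, and 0 were called lower (also 0 at an unadjusted p under 0.05, and 0 with DESeq2 or limma voom). With summed copies, the calls of His1, His2A and His2B held whichever of the 9 libraries was left out. The log2 differences were then 1.94 to 2.24 for His1, 1.22 to 1.53 for His2A and 2.15 to 2.53 for His2B. His2A:CG31618 alone kept its call in 7 of the 9 fits. The neuroblast markers above moved with these types, as did 6 of their 7 members (ase, wor, mira, insc, dpn and klu called higher). The 8 markers of haemocytes and fat body summed to 194 to 262 CPM in nerfin-1[159] and 1.87 to 7.69 CPM in WT libraries. Nearly all of this was Col4a1, a basement membrane collagen, which had 192 to 258 CPM in nerfin-1[159] libraries, against 1.60 to 7.31 CPM in WT libraries. The blood cell marker Hml had 2.31, 0.489 and 0 CPM in nerfin-1[159] libraries, against 0.266, 0 and 0.192 CPM in WT libraries. srp, NimC1 and He were at 0 in every nerfin-1[159] and lola[E76] library and had at most 0.202 CPM in WT libraries. Lsp1beta, Lsp2 and Fbp1 had 1.29, 2.58 and 0.258 CPM in nerfin-1[159] replicate 3. They were at 0 in the other nerfin-1[159] libraries and in all WT libraries. The part of either set of markers in the histone result was not tested.

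**Figure D2:**
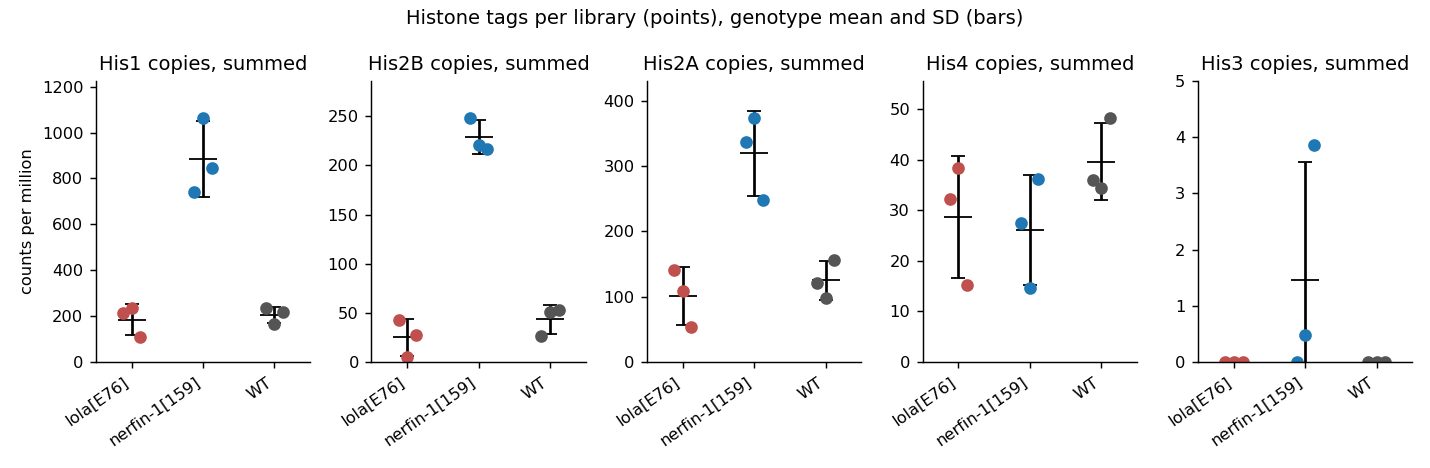
CPM of the summed copies of each histone type in each library (points), with the genotype mean and SD (bars, n = 3). nerfin-1[159] libraries lie above all others for His1, His2B and His2A and overlap with them for His4; His3 had counts in 2 nerfin-1[159] libraries.

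In lola[E76] clones none of the 4 types passed the test against WT, in either direction. His1 had 212, 234 and 109 CPM in lola[E76] libraries, against 236, 167 and 217 CPM in WT libraries (log2 difference -0.19 ± 0.22, edgeR adjusted p = 0.7335). His2A had 140, 109 and 53.9 CPM in lola[E76] libraries, against 121, 97.7 and 156 CPM in WT libraries (-0.33 ± 0.26, edgeR adjusted p = 0.5649). His4 had 32.2, 38.4 and 15.2 CPM in lola[E76] libraries, against 36.0, 34.4 and 48.3 CPM in WT libraries (-0.49 ± 0.34, edgeR adjusted p = 0.4976). For each of these types the genotypes overlapped. The count of 0 called types stood beside 3.53% of all genes called higher and 2.95% called lower, and it was also 0 at an unadjusted p under 0.05 and with DESeq2 or limma voom. lola[E76] replicate 3 was the lowest of the 9 libraries for His1 and His2A.

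His2B was the type with the most uneven values in lola[E76] clones. It had 42.7, 5.27 and 27.5 CPM in lola[E76] libraries, against 26.6, 50.8 and 52.9 CPM in WT libraries, and the difference of -0.83 ± 0.41 (log2) had an edgeR adjusted p of 0.2782. Over the 9 fits that left out a library, the difference ran from -1.50 to -0.35 and was called in 1. That fit left out lola[E76] replicate 1, the library with 42.7 CPM (-1.50, edgeR adjusted p = 0.03545). With no filter on low counts the difference was nearly the same, at -0.85. Its SE was then 0.19 and not 0.41, and the edgeR adjusted p was 0.0004265. The histone copies took 0.0340 ± 0.0118% of the counts in lola[E76] libraries and 0.0415 ± 0.00621% in WT libraries (SD, n = 3 each). The sum of the neuroblast markers was higher in these clones too, with 3 of 7 members called (ase, wor and mira). dpn, klu and grh were above 0 but not called. insc went the other way, at 12.9, 12.5 and 14.7 CPM, below all WT libraries (log2 difference -0.54, edgeR adjusted p = 0.3374). The haemocyte and fat body markers summed to 23.9 to 41.8 CPM. The part of these markers in the histone values was not tested.

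The mutants also differed from each other. In lola[E76] clones His1 was lower than in nerfin-1[159] clones by a log2 difference of -2.30 ± 0.22 (edgeR adjusted p = 7.207e-07), His2A by -1.69 ± 0.26 (edgeR adjusted p = 0.0001263) and His2B by -3.22 ± 0.42 (edgeR adjusted p = 2.132e-05). His4 differed by 0.10 ± 0.35 (log2, edgeR adjusted p = 0.8978). The 3 called types were wholly apart between the mutants and were called whichever library was left out, beside 6.64% of all genes called lower, 8.52% called higher and 29.4% wholly apart in this comparison. No type was called higher, with 0 also at an unadjusted p under 0.05 and with DESeq2 or limma voom. These 2 comparisons of nerfin-1[159] clones share the nerfin-1[159] libraries, and those with WT share the WT libraries, so they are not independent of each other.

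Copy by copy, 35 of the 111 passed the filter on low counts (13 of His1, 7 of His2A, 10 of His2B, 5 of His4 and none of His3). Against WT, 27 of them were called higher in nerfin-1[159] clones and 0 lower (0 also at an unadjusted p under 0.05 and with DESeq2 or limma voom), where 5.66% of 7451 genes were called higher and 6.27% lower. Libraries of both genotypes were wholly apart for 30 of the 35 copies, beside 30% of all genes. Since copies repeat each other's counts, and since some passed the filter through their counts in nerfin-1[159] libraries alone, these counts describe the table and are no tally of separate genes. By type, the called copies were all 13 tested for His1, all 7 for His2A and 7 of 10 for His2B, with 0 of 5 for His4.

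Single copies were examined next, although tags may be shared between profiles too. His1:CG33813 and His1:CG31617 share a profile and had the most tags of any His1 copy. His1:CG31617 had 22.2, 33.2 and 16.1 CPM in lola[E76] libraries and 102, 142 and 116 CPM in nerfin-1[159] libraries, against 36.8, 22.1 and 29.6 CPM in WT libraries. Its difference between nerfin-1[159] and WT was 2.04 ± 0.26 (log2, edgeR adjusted p = 2.046e-05). His1:CG33810, which stands for 7 copies, rose by 1.70 ± 0.29 (log2, edgeR adjusted p = 0.0004682), and the 2 profiles were not tested against each other.

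His2A:CG31618 had 48.2, 52.3 and 35.3 CPM in nerfin-1[159] libraries, against 17.3, 14.0 and 22.3 CPM in WT libraries (log2 difference 1.35 ± 0.33, edgeR adjusted p = 0.009348). With this copy alone the call was lost without nerfin-1[159] replicate 2 (1.21, edgeR adjusted p = 0.05543) and without WT replicate 2 (1.21, edgeR adjusted p = 0.05962). His2B:CG33868, the last His2B copy of the array, had 38.4, 31.3 and 30.7 CPM in nerfin-1[159] libraries, against 4.26, 7.08 and 8.46 CPM in WT libraries (log2 difference 2.33 ± 0.46, edgeR adjusted p = 0.001654). It has a profile of its own, apart from the 6 copies of His2B:CG33904, which differed by 2.32 ± 0.53 (log2, edgeR adjusted p = 0.00563). Both His2B profiles lay wholly above WT in nerfin-1[159] clones. Among the His4 copies, His4:CG33897 differed by -0.60 ± 0.59 (log2, edgeR adjusted p = 0.6449).

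A profile of 4 His1 copies was at 0 in WT clones. His1:CG33834, of unit 13, had 20, 0 and 3 counts in lola[E76] libraries and 108, 197 and 172 counts in nerfin-1[159] libraries, against 0 in each WT library. His1:CG33855, His1:CG33858 and His1:CG33861, of units 20 to 22, carried the same counts within the tolerance of 2. Taken over the group, the level of His1:CG33834 in nerfin-1[159] clones was 41.7 CPM, at least 193-fold higher than the limit that 0 counts in WT clones allow (3 counts over the group). The other His1 profiles of more than 1 copy had tags in all 9 libraries. His1:CG33801, of unit 1, has a profile of its own and was also at 0 in each WT library. It had 0, 0 and 4 counts in lola[E76] libraries and 4, 15 and 8 counts in nerfin-1[159] libraries, the latter at least 10.9-fold above the WT limit.

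The 4 copies of the profile of His1:CG33834 were the ones called higher in lola[E76] clones against WT (4 of 35, beside 3.58% of all genes called higher and 2.91% lower; edgeR adjusted p = 0.03882). Of the 23 counts of His1:CG33834 in lola[E76] libraries, 20 came from replicate 1, and without that library none was called. The calls were also lost with DESeq2, with limma voom, with the 2 genotypes fitted alone, without any 1 of the WT libraries and without nerfin-1[159] replicate 2 or 3. No copy was called lower in lola[E76] clones (6 at an unadjusted p under 0.05, 0 with DESeq2 and limma voom), and 6 were called lower without lola[E76] replicate 1. Between the mutants 27 copies were called lower in lola[E76] clones, beside 6.94% of all genes, and 28 copies were wholly apart, beside 29.7% of all genes. None was called higher, where 8.58% of all genes were (0 also at an unadjusted p under 0.05 and with DESeq2 or limma voom).

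Among His2A and His2B copies, 3 further profiles had tags in nerfin-1[159] libraries and none in the 6 others. The 3 His2B copies of units 19 to 21 led by His2B:CG33876 had 27, 14 and 3 counts in nerfin-1[159] libraries, at least 17.8-fold above the WT limit. The His2A copies of the same units, led by His2A:CG33853, had 8 counts in nerfin-1[159] replicate 2 and 0 in every other library. Those of units 22 and 23, led by His2A:CG33862, had 4 counts in that same library. In all, tags were found at 37 copies in lola[E76] clones, 51 in nerfin-1[159] clones and 32 in WT clones. These numbers include copies that repeat each other's counts and are no tally of separate genes. Some rest on very few counts, as with the 6 His3 copies, which had 17 counts in all and only in nerfin-1[159] libraries. The share of all genes with tags in each genotype is not given here.

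His4 served as a yardstick within each library, because with TMM scaling its tags had not passed the test between any pair of genotypes. This comparison, and the use of the leading copy of each type, were chosen after the values were seen. The ratio of His1 to His4 tags was 18.7, 48.6 and 16 in nerfin-1[159] libraries, against 5.11, 3.21 and 3.02 in WT libraries. For His2A over His4 it was 8.79, 17.8 and 4.89 in nerfin-1[159] libraries, against 2.41, 2.03 and 2.27 in WT libraries. For His2B over His4 it was 7.00, 10.7 and 4.25 in nerfin-1[159] libraries, against 0.593, 1.03 and 0.863 in WT libraries. All 3 ratios were wholly apart. They restate the levels given above, and His4 itself averaged less in nerfin-1[159] than in WT libraries, which raises the ratios, so no test is given. Under 2 other scalings given below His4 was called lower there, along with many other genes. A change of scale does not alter a ratio within a library.

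In lola[E76] libraries the ratio of His1 to His4 tags was 3.44, 4.31 and 5.31, that of His2A 3.11, 2.03 and 2.54 and that of His2B 1.30, 0.200 and 1.46. Each overlapped with WT. The ratios rest on 12 to 51 counts of the leading His4 copy per library.

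**Figure D3:**
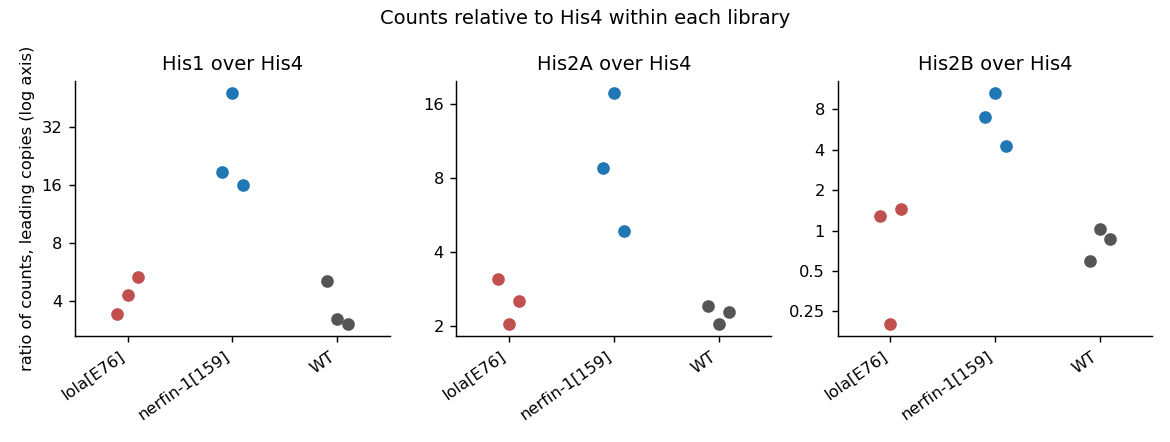
Ratio of the counts of the leading His1, His2A and His2B copy to those of the leading His4 copy in each library, on a log axis. All nerfin-1[159] libraries lie above all lola[E76] and WT libraries in each panel; the lola[E76] and WT libraries overlap.

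Other RNAs that are made without a poly(A) tail were set beside the histones. Summed over 720 genes for snRNAs, snoRNAs, scaRNAs, tRNAs, 7SL RNA and rRNAs, they averaged 61277 ± 10944 CPM in lola[E76], 93825 ± 2160 CPM in nerfin-1[159] and 55979 ± 15842 CPM in WT libraries (SD, n = 3 each). The nerfin-1[159] mean was 1.68 times that of WT and the lola[E76] mean 1.09 times. Most of it was 18S and 28S rRNA, with 86522 ± 3076 CPM in nerfin-1[159] and 51109 ± 15202 CPM in WT libraries (1.69 times). The snRNAs, parts of the splicing machinery, averaged 6684 ± 937 CPM in nerfin-1[159] and 4399 ± 584 CPM in WT libraries (1.52 times). The classes did not move as 1. The snoRNAs and scaRNAs averaged 452 ± 53.3 CPM in lola[E76], 371 ± 38.8 CPM in nerfin-1[159] and 263 ± 54.7 CPM in WT libraries, and 7SL RNA averaged 412 ± 81.1 CPM in lola[E76], 197 ± 45.5 CPM in nerfin-1[159] and 168 ± 42.4 CPM in WT libraries. Both were thus highest in lola[E76] libraries, at 1.72 and 2.46 times WT. tRNAs went the other way, at 0.52 times WT in lola[E76] and 1.22 times WT in nerfin-1[159] libraries. In nerfin-1[159] libraries the sum of all classes, rRNA and snRNA were higher along with His1, His2A and His2B, and their part in the histone result was not tested.

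When libraries were scaled to these RNAs, alternatives chosen after the data were seen, the histone differences shrank. With snRNA, snoRNA and scaRNA counts as the scale, nerfin-1[159] against WT gave 1.5 for His1, 1.77 for His2B and 0.76 for His2A (log2, edgeR adjusted p = 5.518e-05, 0.0006519 and 0.04913), while His4 was called lower at -1.21 (edgeR adjusted p = 0.02033). With 18S and 28S rRNA as the scale, His1 was at 1.28 and His2B at 1.48 (edgeR adjusted p = 0.0005103 and 0.0004088), His2A was no longer called at 0.49 (edgeR adjusted p = 0.2217), and His4 was lower at -1.47 (edgeR adjusted p = 0.003557). These scales moved the median of all genes as well, to -0.60 and -0.85, and the split of all calls to 84 higher and 1706 lower for the first and 55 higher and 2378 lower for the second, against 395 higher and 462 lower with TMM. In lola[E76] over WT the scales moved the median to 0.11 and -0.14 and the split to 200 higher and 79 lower and to 135 higher and 109 lower (262 and 219 with TMM), and no type was called. In lola[E76] over nerfin-1[159] the median moved to 0.71 and 0.70 and the split to 2421 higher and 103 lower and to 1704 higher and 84 lower (632 and 493 with TMM), and His1, His2A and His2B remained called lower, at -1.53, -0.98 and -2.61 and at -1.68, -1.08 and -2.48. A change of scale moves all genes of a library together. Where the types lie relative to those medians therefore follows from the TMM fit and is no further result.

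**Figure D4:**
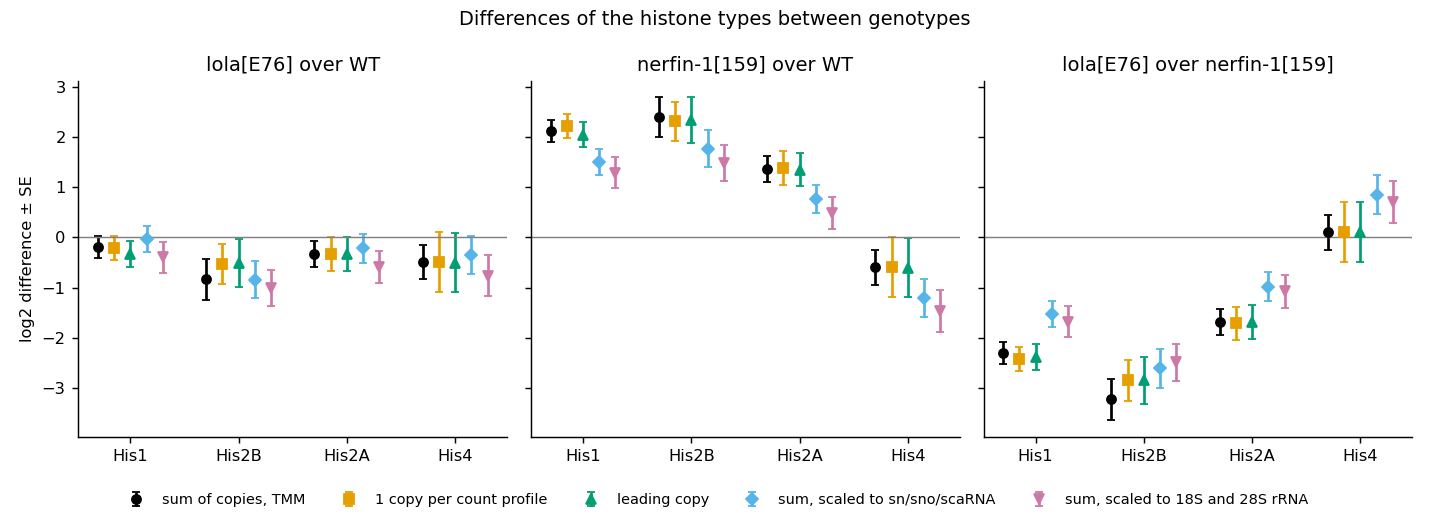
Log2 difference (± SE) of each tested histone type in 3 comparisons, with the copies summed, with 1 copy per count profile, with the leading copy alone and with 2 other scalings. His1 and His2B lie above 0 in nerfin-1[159] over WT and below 0 in lola[E76] over nerfin-1[159] under every setting, and His4 lies below 0 in nerfin-1[159] over WT.

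Genes that act with the replication-dependent histones were examined as 6 lists of general knowledge, drawn up with earlier results of these data known. The replication-independent variants are polyadenylated and are made in all cell cycle phases. His2Av, the only H2A variant of the fly, rose in nerfin-1[159] clones, with 893, 776 and 894 CPM, against 495, 603 and 619 CPM in WT clones (log2 difference 0.58 ± 0.15, edgeR adjusted p = 0.01333; lost without WT replicate 1, 0.49, edgeR adjusted p = 0.07476, and without nerfin-1[159] replicate 3, 0.53, edgeR adjusted p = 0.06555). His3.3B had 6234, 5845 and 6519 CPM in nerfin-1[159] libraries, against 5546, 5515 and 5306 CPM in WT libraries, and did not pass the test (0.19 ± 0.09, edgeR adjusted p = 0.1951). His3.3A (0.08, edgeR adjusted p = 0.7232) and His4r, a His4 gene outside the array (0.11, edgeR adjusted p = 0.6401), did not pass either. Of 5 variants tested, 1 was thus called higher in nerfin-1[159] clones, beside 5.32% of all genes, and 0 in lola[E76] clones, beside 3.53%. In lola[E76] clones none was called at an unadjusted p under 0.05 or with DESeq2 or limma voom.

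Of 20 genes of histone transcription and the histone locus body, 2 rose in nerfin-1[159] clones, beside 5.32% of all genes called higher. The list median was 0.28 (log2), beside 0.002 over all genes. mxc, the scaffold of the histone locus body, had 206, 180 and 196 CPM in nerfin-1[159] libraries, against 134, 122 and 124 CPM in WT libraries (0.62 ± 0.15, edgeR adjusted p = 0.008992; 0.58, edgeR adjusted p = 0.05037 without WT replicate 3). CycE, the cyclin whose kinase starts S phase and activates histone transcription, had 275, 164 and 217 CPM in nerfin-1[159] libraries, against 20.2, 92.9 and 128 CPM in WT libraries (1.44 ± 0.36, edgeR adjusted p = 0.01131; DESeq2 adjusted p = 0.08249). The lowest of these values belonged to WT replicate 1, and without that library the CycE difference was 1.00. Slbp had 52.5, 47.7 and 53.4 CPM in nerfin-1[159] libraries, against 22.6, 36.4 and 40.4 CPM in WT libraries, wholly apart but not called (0.63 ± 0.24, edgeR adjusted p = 0.1004). Lsm11, a subunit of the U7 particle that directs histone mRNA cleavage, had few tags, with 0 to 1.55 CPM in nerfin-1[159] and 2.13 to 4.05 CPM in WT libraries. It lay wholly below WT, the other way from mxc, CycE and Slbp, and was not called.

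Of 17 factors of mRNA 3′ processing, 1 rose in nerfin-1[159] clones, a share close to the 5.32% of all genes. It was the transcription elongation cyclin CycT (0.40 ± 0.11, edgeR adjusted p = 0.02274), and its call was lost in 5 of the 9 fits that left out a library. Of 12 histone chaperones tested, 5 rose, beside 5.32% of all genes, with a list median of 0.35. Caf1-180, a subunit of the complex that deposits new histones behind the replication fork, had 229, 219 and 185 CPM in nerfin-1[159] libraries, against 42.9, 92.9 and 130 CPM in WT libraries (1.25 ± 0.25, edgeR adjusted p = 0.001768). Ssrp and dre4, which together form the chaperone FACT, differed by 0.59 ± 0.12 and 0.61 ± 0.17 (edgeR adjusted p = 0.002311 and 0.02682), and asf1, which hands on new His3 and His4, by 0.93 ± 0.27 (edgeR adjusted p = 0.02852). The calls of dre4 and asf1 were each lost in 5 of the 9 fits that left out a library, and Caf1-105 was the other called member (1.22 ± 0.39, edgeR adjusted p = 0.04566).

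Of 31 S phase genes tested, 6 rose in nerfin-1[159] clones, beside 5.32% of all genes, with a list median of 0.79. E2f1, the transcription factor of S phase entry, had 2606, 2351 and 2506 CPM in nerfin-1[159] libraries, against 1128, 1438 and 1525 CPM in WT libraries (0.87 ± 0.11, edgeR adjusted p = 1.533e-05). dup, which licenses replication origins, rose by 1.63 ± 0.36 (edgeR adjusted p = 0.004542), and geminin, its inhibitor, by 0.75 ± 0.20 (edgeR adjusted p = 0.01944; lost in 4 of the 9 fits that left out a library). PCNA, the sliding clamp of DNA polymerase, had 214, 218 and 256 CPM in nerfin-1[159] libraries, against 62.1, 185 and 235 CPM in WT libraries, and did not pass (0.52 ± 0.29, edgeR adjusted p = 0.319). Without WT replicate 1, 3 S phase genes were called and, without nerfin-1[159] replicate 3, also 3.

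The list with the most called members was that of G2 and mitosis genes, where 10 of 19 rose in nerfin-1[159] clones, beside 5.32% of all genes, and the list median was 0.87. CycA had 441, 420 and 434 CPM in nerfin-1[159] libraries, against 139, 164 and 228 CPM in WT libraries (1.29 ± 0.16, edgeR adjusted p = 1.396e-05). stg, the phosphatase that starts mitosis, had 795, 592 and 637 CPM in nerfin-1[159] libraries, against 284, 306 and 437 CPM in WT libraries (0.99 ± 0.15, edgeR adjusted p = 0.0001805). The neuroblast markers, given above, moved with these genes and with those of S phase, and their part was not tested. The condensin subunits glu (0.97 ± 0.14, edgeR adjusted p = 8.016e-05) and barr (0.92 ± 0.17, edgeR adjusted p = 0.0008693) rose as well. In none of the 6 lists was a member called lower in nerfin-1[159] clones (0 also at an unadjusted p under 0.05, and with DESeq2 and limma voom), beside 6.23% of all genes called lower.

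In lola[E76] clones the same lists gave 2 calls against WT, both higher, and 0 lower (4 at an unadjusted p under 0.05, 0 with DESeq2 and limma voom), beside 3.53% of all genes called higher and 2.95% lower. The calls were thus no more frequent than over all genes. asf1 had 84.7, 42.2 and 45.0 CPM in lola[E76] libraries, against 21.0, 30.6 and 33.3 CPM in WT libraries (0.98 ± 0.27, edgeR adjusted p = 0.03212; 0.55, edgeR adjusted p = 0.2292 without lola[E76] replicate 1). CycB, a mitotic cyclin, had 62.0, 53.8 and 41.5 CPM in lola[E76] libraries, against 26.6, 31.8 and 28.1 CPM in WT libraries (0.83 ± 0.22, edgeR adjusted p = 0.02877), a call lost in 5 of the 9 fits that left out a library. None of the 31 S phase genes was called, with 7 higher at an unadjusted p under 0.05, 2 with DESeq2 and 1 with limma voom. Of the 31, 28 had a difference above 0, and the list median was 0.53, beside -0.001 over all genes. WT replicate 1 was low for many of these genes, which raises their differences. It had 62.1 CPM of PCNA, against 185 and 235 CPM in the other WT libraries, and 20.2 CPM of CycE, against 92.9 and 128 CPM. It was not low for all, with 123 CPM of Dp against 110 and 115 CPM. The list median without that library is not given here. CycE had 152, 148 and 154 CPM in lola[E76] libraries, above all WT libraries, with a difference of 0.87 ± 0.36 (edgeR adjusted p = 0.1772; 1.34, edgeR adjusted p = 0.0373 without WT replicate 3). mxc (-0.04, edgeR adjusted p = 0.9438), Slbp (0.22, edgeR adjusted p = 0.7003), stg (-0.42, edgeR adjusted p = 0.1169) and E2f1 (0.15, edgeR adjusted p = 0.5155) did not pass.

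**Figure D5:**
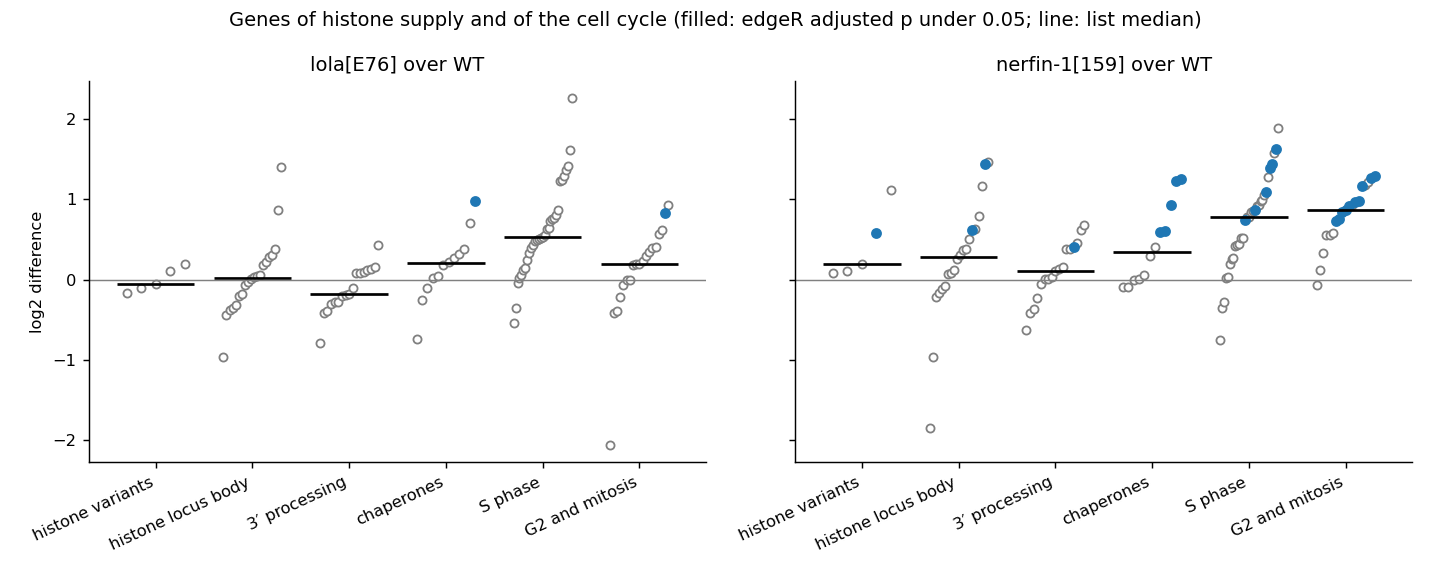
Log2 difference of each tested gene of 6 lists in lola[E76] over WT (left) and nerfin-1[159] over WT (right); filled points had an edgeR adjusted p under 0.05 and lines are list medians. 10 of 19 G2 and mitosis genes and 6 of 31 S phase genes are filled in the right panel, and 2 genes in all are filled in the left panel.

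Between the mutants, stg was lower in lola[E76] clones by a log2 difference of -1.41 ± 0.15 (edgeR adjusted p = 3.036e-06), E2f1 by -0.73 ± 0.11 (edgeR adjusted p = 8.253e-05), CycA by -0.89 ± 0.15 (edgeR adjusted p = 0.0004758) and mxc by -0.65 ± 0.15 (edgeR adjusted p = 0.004607). Nelf-E, a subunit of the factor that pauses RNA polymerase, had 10.3, 8.78 and 9.10 CPM in lola[E76] libraries, against 44.4, 24.4 and 25.02 CPM in nerfin-1[159] libraries (-1.77 ± 0.34, edgeR adjusted p = 0.001228). CycE (-0.57, edgeR adjusted p = 0.3309; called at 0.02472 without WT replicate 1) and PCNA (-0.01, edgeR adjusted p = 0.9923) did not pass. Over the 6 lists, the called members were lower in lola[E76] clones in every case, with 1 of 5 variants, 3 of 20 locus body genes, 3 of 17 processing factors, 1 of 12 chaperones, 2 of 31 S phase genes and 6 of 19 G2 and mitosis genes, beside 6.64% of all genes called lower. The shares of the S phase genes and the chaperones were close to that of all genes. DESeq2 and limma voom each called 1 chaperone higher, and 4 genes were higher at an unadjusted p under 0.05.

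Binding of the Lola.N isoform was recorded by Targeted DamID in eyeless-GAL4 (ey16F10-GAL4) cells of L3 brains, in which a Dam methylase fusion marks the DNA it contacts. The authors' peak lists of the replicates N1 and N2 held 4676 and 4544 peaks. No peak lay inside the histone array in either list, and 0 of the 111 copies were overlapped, where 14.3% of 17796 genes were overlapped in both. The count stayed at 0 with 1 kb added on either side of a copy. The copies form 1 cluster and so count as 1 locus, and the sources used here do not say how reads of repeated sequence were treated. Elsewhere, 24 of 107 genes of the 6 lists were overlapped in both replicates, among them mxc, Slbp, CycE, E2f1, stg, CycA, asf1 and Caf1-180.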

How the data were processed

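The authors deposited a table of raw counts per gene for 9 RNA libraries of QuantSeq 3′ tags. Subread, featureCounts and limma appear, with no role or version, in the submitters' processing notes, and the sources used here give neither build nor annotation, nor how tags that match several genes were counted. All count columns matched a labelled sample. Genes without a symbol (33) held at most 0.0085% of a library. The 2 Lola.N peak lists carry the authors' peak score, for Lola.N over Dam at FDR 0.01 according to the file names. The unit of that score was not stated. The Dam-only samples were not analysed here. The last peak on 3R ended at 32.08 Mb, within Release 6 of the fly genome, and the number of genes overlapped in both lists was 2539, against 2364 and 2396 with peaks moved by 5000 bases and 2077 and 2066 with peaks moved by 100000 bases.

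Copies of a type were summed, genes were kept by filterByExpr (7420 with summed types, 7451 as deposited), scaled by TMM and fitted with edgeR 4.0.16 (R 4.3.3) in 1 quasi-likelihood model with a mean per genotype over all 9 libraries. A two-sided test called a gene at 0.05 after Benjamini-Hochberg adjustment. SE is the log2 difference divided by the square root of the F statistic. Alternatives used DESeq2 1.42.0, limma 3.58.1 (voom), other scalings and filters, a replicate block and each library left out. Tables used Python 3.11.15 and pandas 2.3.3. The fit was tested on simulated data. No library duplicated another of its genotype (lowest chi-square per degree of freedom 11.0). The members and the lists (143 entries, 11 matched by a synonym or another spelling) were chosen with earlier results of these data known. Genes were named by rule: the type sums, 3 leading copies per type, 11 genes of the lists and up to 4 called genes of lowest adjusted p per list and comparison. Copies at 0 in WT, Caf1-105 and the marker genes were named after their values were seen.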

Additional observations from a re-analysis of the deposited data

How the results depend on the processing

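No called result changed direction under any alternative. The called rises of His1 and His2B in nerfin-1[159] clones held in each of them, and that of His2A in all but the scaling to rRNA. With either scaling to RNAs without a tail, 1 type (His4) was called lower in nerfin-1[159] over WT, against 0. In these 2 fits 1706 and 2378 of 7420 genes were called lower, against 462 with TMM, and the median of all genes was -0.60 and -0.85. For lola[E76] over WT, 1 type (His2B) was called lower with no filter and 0 to 1 with a library left out. The 4 copies called higher in lola[E76] over WT became 0 with DESeq2, with limma voom, with 2 genotypes alone and with a replicate block (0 to 4 with a library left out), and 0 to 6 copies were lower with a library left out. The list genes called higher in lola[E76] over WT were 2, and 7 with no filter, 5 with DESeq2, 1 with 2 genotypes alone, 1 with the replicate block and 0 to 6 with a library left out, while 1 was lower with no filter. In nerfin-1[159] over WT 24 list genes were called higher, and 11 to 24 with a library left out (11 without nerfin-1[159] replicate 3, 13 without WT replicate 1). In lola[E76] over nerfin-1[159] 1 list gene was higher with library size only, DESeq2 or limma voom, and 0 to 1 with a library left out. With 1 copy per count profile, the share of counts was 0.00757% in lola[E76], 0.0360% in nerfin-1[159] and 0.00917% in WT libraries. Of 15 list genes named as called in nerfin-1[159] over WT, 9 kept the call whichever library was left out.

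Replicate numbers did not pair the samples: same-numbered libraries of different genotypes deviated with correlations of -0.055 to 0.025, and the best partner of a library bore its number for 1 of the 9. Beyond the replicate block values above, asf1 in lola[E76] over WT, and dre4 and dup in lola[E76] over nerfin-1[159], lost their calls in that fit.

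Calls over all genes moved by more than 1.5 times in some fits: 219 lower in lola[E76] over WT became 134 without WT replicate 1 and 135 without WT replicate 2, and 395 higher in nerfin-1[159] over WT became 254 without nerfin-1[159] replicate 3 and 237 without WT replicate 2. Depth limits His3, with 17 counts in all, and the leading His4 copy, with 12 to 51 counts per library.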
